A study of Arabidopsis thaliana with 6 samples.

Results

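Transcript levels in whole Arabidopsis thaliana seedlings were compared between 2 arrays from seedlings given glucose analogs (titled OMG and DOG) and 2 control arrays (titled wat and man), which are 4 of the 6 arrays of the series. Each of the 4 arrays was the only array of its group. All seedlings were of the wild-type Col-0 accession at growth stage 1.02, raised under continuous light at 23 °C on 0.8% agar with Murashige and Skoog salts at reduced strength, after 72 h of stratification at 4 °C. The labels record no treatment, dose or duration, so the groups rest on the array titles alone, and matched doses cannot be assumed. The series title speaks of glucose analogs that plants do not metabolise and of sensing independent of hexokinase. Knowledge of a related publication, and not the labels, gives OMG as 3-O-methylglucose and DOG as 6-deoxyglucose. The title wat is read as water, and man, which could be mannitol or mannose, is kept as given. The remaining 2 arrays, titled glc and zer, are quoted beside the others for scale and entered no comparison.

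A difference was the mean log2 signal of OMG and DOG minus the mean log2 signal of wat and man, and it was kept only where both analog arrays lay on the same side of both control arrays. Of 22746 probe sets other than the AFFX controls, the 12306 that reached the median of their array on at least 1 of the 4 arrays were compared. Signals below 28.6, the highest of the 4 arrays' 40th percentiles, were raised to that floor, and a fold that involves a raised signal on the dimmer side is written as "at least". With 1 array per group there is no replicate error for any value, and no p-value was computed. An exact permutation test of 2 arrays against 2 could not return a p below 1 in 3. Where differences are set beside a spread, that spread is the difference between the arrays of the same side (OMG against DOG, wat against man), which holds differences between treatments as well as noise.

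Plants read glucose both as a fuel and as a signal. Hexokinase phosphorylates glucose at the start of its metabolism and in Arabidopsis (HXK1) also acts as a glucose sensor, while other routes answer to sugar status through the energy sensor kinase SnRK1, through TOR kinase and through sensing at the plasma membrane. Analogs are used to separate these routes. Cells take up 3-O-methylglucose, which hexokinase phosphorylates poorly, and 6-deoxyglucose lacks the hydroxyl group that hexokinase phosphorylates. In sugar-fed seedlings, genes of starvation and amino acid breakdown are typically repressed, while genes of anthocyanin synthesis are induced.

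Few transcripts separated the analog arrays from both controls by a sizeable margin. At 1.5-fold or more, 30 probe sets read higher on both analog arrays (0.244% of those compared) and 52 read lower (0.423%), together 0.666%. At 2-fold or more there was 1 probe set higher (0.00813%), for the cell wall enzyme gene XTH18, and there were 4 lower (0.0325%). Of the 4 lower probe sets, 3 were those of AT1G29090, the plastid gene rps14 and AT5G44170, and the other is annotated to more than 1 gene and is left without a name. With no limit on size, 2468 probe sets (20.1%) read higher and 2043 (16.6%) read lower on both analog arrays, 36.7% in all, and 82.0% of those 4511 differences were smaller than 1.25-fold. The median difference over all compared probe sets was 0.01 on the log2 scale. Probe sets kept at 1.5-fold or more are termed called in what follows.

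Differences within a side were of similar size to those between sides. Over the 12306 probe sets, the log2 difference between OMG and DOG had an SD of 0.21 across probe sets, with 238 probe sets at least 1.5-fold apart and 7 at least 2-fold apart. The difference between wat and man had an SD of 0.27, with 511 and 44 probe sets past those folds. The 4 pairs of an analog with a control had SDs between 0.24 and 0.26 and held between 346 and 417 probe sets at least 1.5-fold apart. The difference of the side means exceeded both within-side differences for 21 of the 30 probe sets called higher and for 41 of the 52 called lower. These probe sets were selected for separated sides and for size, which favours that outcome. The counts therefore do not measure signal against spread. The OMG and DOG arrays are given side by side throughout, since their doses and times are not stated.

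The called probe sets were mostly dim. Their signal averaged over the 4 arrays had a median of 59.2 among those called higher and 54.3 among those called lower, against 105.1 over all probe sets compared. In bands of this mean signal, which were drawn after the called probe sets were seen to be dim, 1.55% of 2063 probe sets below 50 were called, 1.04% of 3828 between 50 and 100, 0.199% of 3010 between 100 and 200, and 0.188% of 2123 between 200 and 500. None of the 1282 probe sets at 500 or above was called. The spread between OMG and DOG narrowed over the same bands, from an SD of 0.30 below 50 to 0.11 at 500 or above. Only 1 probe set called higher (XTH18) and 3 called lower (psbB, AT3G23550 and AT1G11360) had a signal of at least 100 on all 4 arrays.

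**Figure D1:**
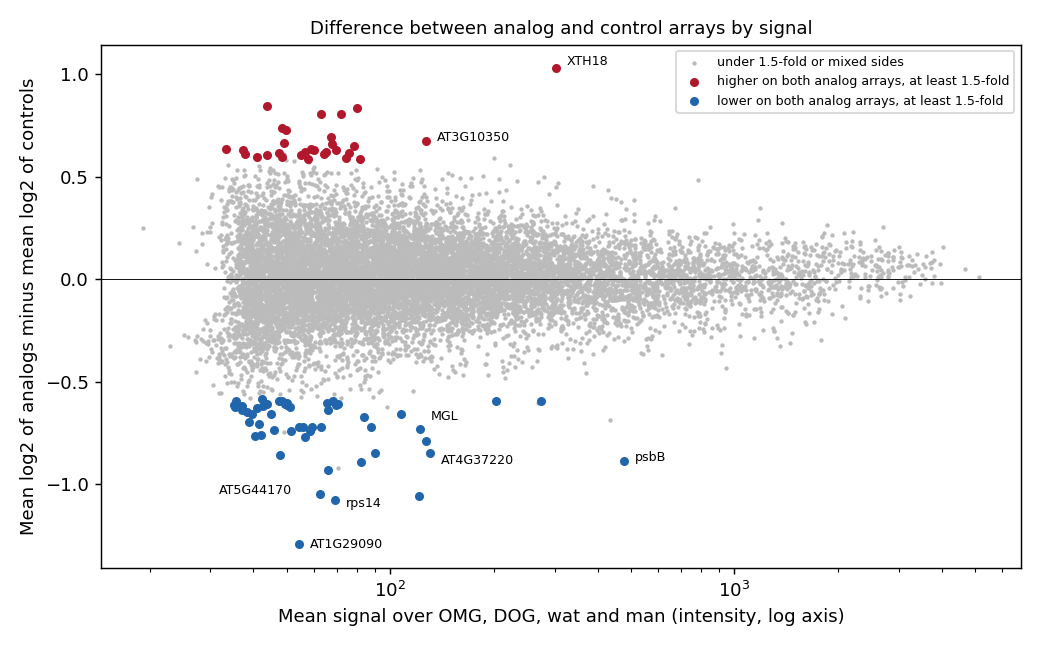
Each point is 1 of the 12306 probe sets compared, with its mean signal over OMG, DOG, wat and man on the horizontal axis (intensity, log scale) and the mean log2 signal of the analogs minus that of the controls on the vertical axis. The 30 probe sets called higher (red) and 52 called lower (blue) lie mostly at mean signals below 100, and XTH18 and psbB stand apart at 302.3 and 476.2.

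XTH18 had the largest difference in the higher direction. The gene encodes a xyloglucan endotransglucosylase/hydrolase, an enzyme that cuts and rejoins the xyloglucan chains tethering cellulose in the growing wall. Its signal was 252.2 on OMG, 578.9 on DOG, 163.1 on wat and 215.1 on man. Both analog arrays lay above both controls, but OMG was only 1.17-fold above man, and DOG was far above the other arrays. The mean difference was 1.03 on the log2 scale, or 2.04-fold (2.34-fold over wat, 1.78-fold over man), while OMG minus DOG was -1.199 on the same scale. Without the DOG array, XTH18 was no longer called. The glc and zer arrays read 103.9 and 75.8, both below wat.

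Among probe sets called higher and named for a single gene, AT3G10350 had the widest gap between the nearest analog and control arrays. No name is given for it in the sources used here. It read 153.5 on OMG, 157.9 on DOG, 101.5 on wat and 94.0 on man. The arrays of each side lay close together and the nearest analog and control arrays were 1.51-fold apart, for a difference of 0.67 on the log2 scale (1.59-fold). It was the only gene of the 15 named by size in this direction to be called under all the alternative settings that compared it. The glc array read 129.7 and the zer array 106.0.

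GH9B13, a member of the glycosyl hydrolase family that includes the endoglucanases of the cell wall, showed a similar spacing at lower signal. It read 72.3 on OMG, 73.0 on DOG, 48.2 on wat and 45.6 on man, a difference of 0.63 (1.55-fold). The arrays within a side were nearly equal. BRK1 encodes a small subunit of the SCAR/WAVE complex, which switches on the actin-branching ARP2/3 complex. It read 78.6 on OMG, 90.0 on DOG, 62.2 on wat and 47.3 on man (0.63, or 1.55-fold), with the wat array nearer to the analogs than man, and it was not called without man or without DOG. LSM3A encodes a subunit of the Sm-like protein rings that act in mRNA decay and splicing. It read 37.7 on OMG, 53.4 on DOG, 29.2 on wat and 28.7 on man (0.63, or 1.55-fold), with both controls just above the floor, and it read 56.6 on glc and 50.8 on zer, close to DOG. With an offset added before the log, GH9B13, BRK1 and LSM3A were not called. LSM3A reached the array median only on DOG, so it did not pass the filter without DOG and was not compared there.

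The other 10 genes named by size in the higher direction carry only a locus identifier. AT3G04010 read 63.0 on OMG, 97.1 on DOG, 36.8 on wat and 54.2 on man (0.81). AT5G49220 read 93.5 on OMG, 86.1 on DOG, 71.3 on wat and 37.0 on man (0.80). AT1G70620 read 59.3 on OMG, 64.6 on DOG, 34.9 on wat and 40 on man (0.73). The size of the fold depended on which control was taken, since AT3G04010 and AT1G70620 were lowest on wat and AT5G49220 was lowest on man. AT5G01030 read 63.5, 56.6, 33.1 and 43.3 on OMG, DOG, wat and man in that order (0.66). AT1G70985 read 78.0, 84.7, 38.5 and 68.7 in the same order (0.66), which is 2.11-fold over wat and 1.18-fold over man. For AT4G23930 the signals in that order were 41.7, 47.2, 18.7 and 25.3 (0.63, at least 1.55-fold), and both controls lay below the floor. The differences of AT5G62130, AT1G52050, AT4G30650 and AT1G13160 lay between 0.60 and 0.62. AT4G30650 read 74.2 on OMG and 78.9 on DOG against 66.4 on wat, 37.8 on man and 291.3 on zer, so zer lay far above every array of the comparison.

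In the lower direction the largest difference was that of AT1G29090. It read 39.7 on OMG, 11.9 on DOG, 81.1 on wat and 84.3 on man. The controls were close together and the analogs well below them, with DOG under the floor, so the difference of -1.30 is a bound (at least 2.45-fold lower). The glc array read 21.2 and the zer array 60.3. AT5G44170 read 40 on OMG, 41.1 on DOG, 83.5 on wat and 84.4 on man. Arrays within each side were nearly equal and every analog array was at least 2.03-fold below every control array (-1.05, or 2.07-fold lower). On glc and zer this gene read 71.6 and 57.0, between the analogs and the controls.

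AT4G37220 and ZCF37 were also separated from each control. AT4G37220 read 92.6 on OMG, 92.8 on DOG, 174.2 on wat and 160.4 on man (-0.85, or 1.80-fold lower), which was 1.88-fold below wat and 1.73-fold below man. On glc it read 19.4 and on zer 44.3, both below the analogs. ZCF37 read 39.6 on OMG, 50.8 on DOG, 76.0 on wat and 96.2 on man (-0.93, or 1.91-fold lower). AT1G29090, AT5G44170, ZCF37 and AT4G37220 were the 4 of the 15 genes named by size in this direction that were called under every alternative setting that compared them. None of the 4 was bright enough to be compared under the limit of 100 on all 4 arrays. AT1G29090, AT5G44170 and ZCF37 also failed the filter that asked for the median on all 4 arrays. Their calls were therefore not put to those stricter filters.

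For other genes called lower, the man array set most of the difference. MGL encodes methionine gamma-lyase, which breaks methionine down. It read 101.2 on OMG, 80.7 on DOG, 123.6 on wat and 182.7 on man (-0.73), 1.37-fold below wat and 2.02-fold below man. AT2G38240 read 51.3 on OMG, 55.6 on DOG, 61.1 on wat and 161.2 on man (-0.89), 1.14-fold below wat and 3.02-fold below man. AT3G23550 read 210.6 on OMG, 207.4 on DOG, 215.7 on wat and 460.7 on man (-0.59), 1.03-fold below wat and 2.204-fold below man. For AT2G38240 and AT3G23550 wat lay close to the analogs and man stood above the other 3 arrays, while for MGL wat lay between the analogs and man. None of these genes was called without the man array, and MGL and AT3G23550 were not called without DOG either. AT3G23550 was also not called with equal medians or with an offset added before the log.

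AtRZ-1b, a zinc-finger glycine-rich RNA-binding protein gene, read 37.5 on OMG, 44.5 on DOG, 74.6 on wat and 60.9 on man (-0.72, or 1.65-fold lower). GSTU25, a tau-class glutathione transferase gene, read 55.4 on OMG, 53.1 on DOG, 80.6 on wat and 83.3 on man (-0.60, or 1.51-fold lower), with both controls above both analogs by similar margins. It was not called without man, without DOG, with equal medians or with an offset added before the log. AT2G04570 showed the same arrangement, with 46.0 on OMG, 43.3 on DOG, 73.0 on wat and 74.2 on man (-0.72). AT2G17540, AT2G06430 (measured by a probe set of a type that can share sequence with other genes), AT4G26060, AT1G70420 and AT1G51745 had differences between -0.77 and -0.72, and none of them read above 79.1 on any of the 4 arrays. The last gene named for its gap, AT1G18680, read 28.1 on OMG, 30.7 on DOG, 45.8 on wat and 50.3 on man, at least 1.62-fold lower.

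**Figure D2:**
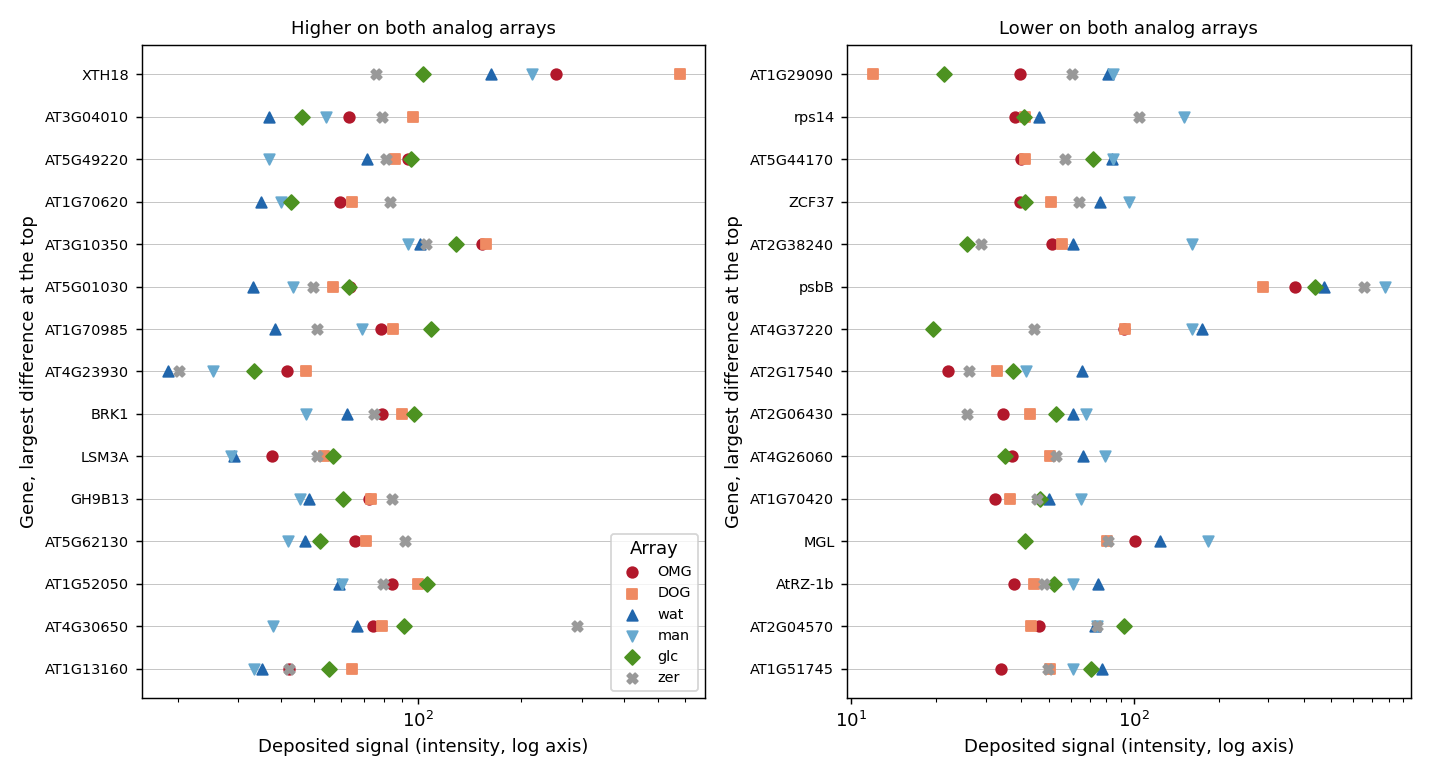
Deposited signal (intensity, log axis) of the 15 genes named by size in each direction, with 1 marker for each of the arrays OMG, DOG, wat, man, glc and zer, the genes ordered from the largest difference at the top. XTH18 reads 578.9 on DOG and 252.2 on OMG, while AT5G44170 reads 40 and 41.1 on the analog arrays and 83.5 and 84.4 on the controls.

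The plastid genome encodes photosystem, NDH complex and ribosome subunits. Of its 69 compared genes 2 were called lower, beside 0.423% of all probe sets compared. Both lay further from man than from wat. psbB encodes the CP47 antenna protein of photosystem II. It read 372.4 on OMG, 286.6 on DOG, 470.6 on wat and 775.2 on man, with man highest and the analogs lowest (-0.89, or 1.85-fold lower). Against wat alone it was 1.44-fold lower and against man 2.37-fold lower. On glc and zer it read 438.7 and 655.7.

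rps14 encodes a protein of the small subunit of the plastid ribosome. It read 38.0 on OMG, 41.3 on DOG, 46.3 on wat and 151.2 on man (-1.08, or 2.11-fold lower), and 40.7 on glc and 104.4 on zer. The wat array was only 1.17-fold above the mean of the analogs and the man array was 3.82-fold above it. Neither rps14 nor psbB was called without the man array.

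Other plastid genes read high on man with wat close to the analogs. rpoB, a subunit of the plastid-encoded RNA polymerase, read 37.4 on OMG, 26.9 on DOG, 29.0 on wat and 103.6 on man. petD, a subunit of the cytochrome b6f complex, read 74.8 on OMG, 64.5 on DOG, 60.2 on wat and 190.2 on man. psbT, a small photosystem II subunit, read 293.0 on OMG, 260.1 on DOG, 258.1 on wat and 503.8 on man. For all 3 genes the wat array lay below the analogs or between them, so no difference was kept. In all, 9 of the 69 genes read at least 1.5-fold higher on man than on wat and none read that much lower, a share of 13.0% beside 1.63% of all probe sets compared (200 of 12306). At least 1.5-fold above the mean of the analogs, man also had 9 genes (13.0%, beside 1.01% or 124 of all), of which 7 were among those above wat.

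The high reading on man was shared by some neighbouring genes and not by others. psbB lies next to psbT, and petD next to petB, among the protein-coding genes of the reference annotation. petB read 3243.3 on OMG, 2881.4 on DOG, 2892.8 on wat and 2978.7 on man, and psbH, next to petB, read 1446.4, 1323.3, 1313.7 and 1340.4 in the same order. psaB, next to rps14, read 3613.5 on OMG, 3236.5 on DOG, 3251.3 on wat and 3276.3 on man. These 3 probe sets differed little between arrays, and OMG was the highest in each.

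Over all 69 plastid genes, 18 (26.1%) read higher and 11 (15.9%) lower on both analog arrays, beside 20.1% and 16.6% of all probe sets compared, and the median difference was 0.06 beside 0.01. None was called higher. psbN encodes a small protein required for photosystem II assembly. It read 180.0 on OMG, 110.8 on DOG, 96.3 on wat and 105.5 on man (0.49), with OMG well above the rest. ndhA, a membrane subunit of the NDH complex, read 1379.5 on OMG, 1277.7 on DOG, 946.2 on wat and 1152.6 on man (0.35). psbE, a subunit of cytochrome b559, read lower, with 785.5 on OMG, 756.3 on DOG, 940.6 on wat and 932.2 on man (-0.28).

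**Figure D3:**
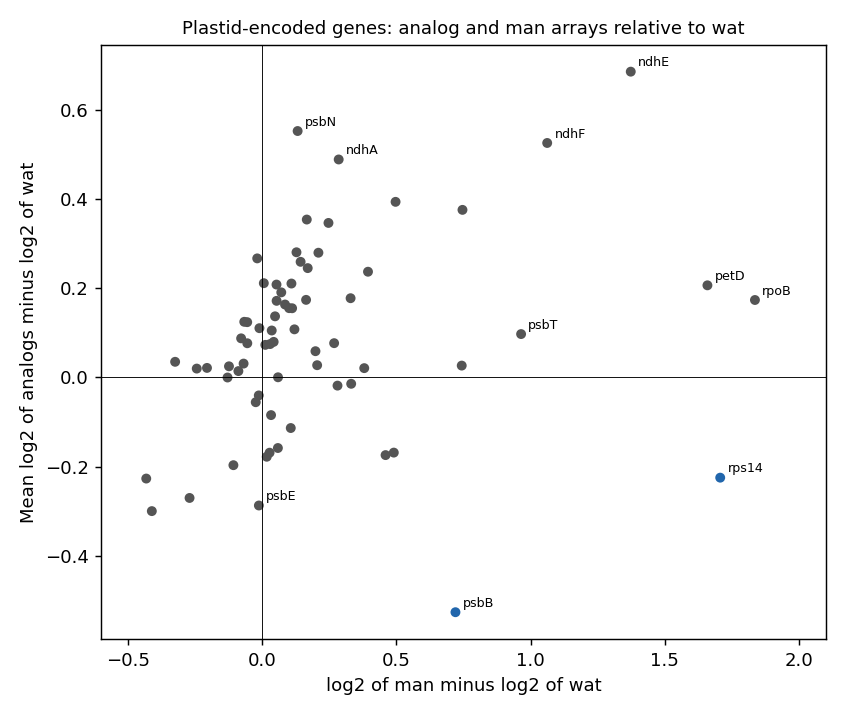
Each point is 1 of the 69 plastid-encoded genes compared, with the log2 signal of man minus that of wat on the horizontal axis and the mean log2 signal of the analogs minus that of wat on the vertical axis. rps14, rpoB and petD lie far to the right because man read 151.2, 103.6 and 190.2 against 46.3, 29.0 and 60.2 on wat, and the called genes rps14 and psbB (blue) lie below 0.

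The choice of control decided much of what was called. Of the 30 probe sets called higher, 16 were at least 1.5-fold above wat, 23 at least 1.5-fold above man and 9 above each of them. Of the 52 called lower, 33 were that far below wat, 35 below man and 16 below each. The wat array was the nearer control for 19 of those called higher and 31 of those called lower. Each analog by its own value was at least 1.5-fold from the mean of the controls for 9 of the probe sets called higher and 27 of those called lower. A fold of 1.5 in all 4 pairs of an analog with a control was reached by 3 probe sets called higher and 8 called lower, counting a fold equal to 1.5.

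Leaving out 1 array relaxed the requirement on sides and changed the counts of called probe sets by more than 1.5 times. Without wat, 157 were called higher and 132 lower, of which 23 and 35 were among the 30 and 52. Without man the counts were 86 and 121, with 16 and 33 shared. Without OMG they were 96 and 94, with 23 and 36 shared. Without DOG they were 57 and 107, with 16 and 43 shared.

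**Figure D4:**
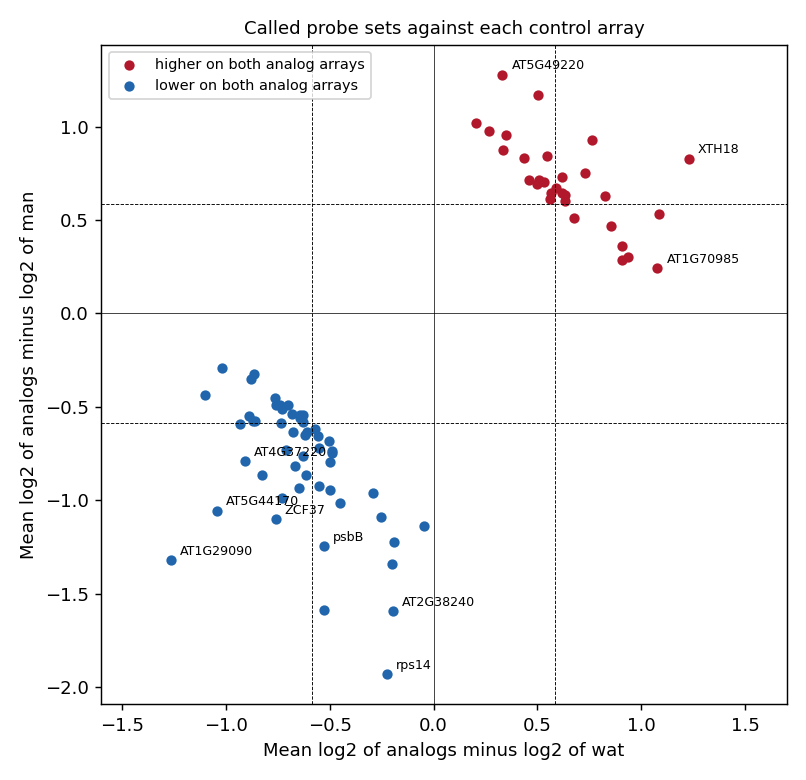
Each point is 1 of the 82 called probe sets, with the mean log2 signal of the analogs minus the log2 signal of wat on the horizontal axis and the same minus man on the vertical axis, and the dashed lines mark 1.5-fold. Of the 52 called lower (blue), 16 lie past both dashed lines, while rps14 and AT2G38240 lie far from man and near wat.

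Gene lists relevant to sugar, growth and stress were read against the same counts over all probe sets. Of 470 entries in the 17 lists of single genes, 98 (96 genes, as some entries are synonyms) were measured by a probe set that the annotation ties to no other gene, so the lists are covered only in part. Expansins, which loosen cell walls as cells elongate, had the largest median difference among the lists with at least 5 members compared, 0.23 on the log2 scale. The median was 0.14 against wat and 0.32 against man. Of 9 expansins compared, 5 (55.6%) read higher on both analog arrays and 1 (11.1%) read lower, beside 20.1% and 16.6% of all, and none was called. Some of these differences were near ties, as for EXPA9, with 47.8 on OMG, 49.5 on DOG, 36.2 on wat and 47.6 on man. EXLA2 read 39.6 on OMG, 45.1 on DOG, 28.7 on wat and 29.8 on man (0.53). EXLA1 read 276.3 on OMG, 386.9 on DOG, 228.6 on wat and 262.6 on man (0.42), with DOG highest as for XTH18. EXPA7, an expansin of root hairs, was the lower one, with 28.4 on OMG, 35.0 on DOG, 39.0 on wat and 43.4 on man (-0.38). Its OMG signal lay under the floor, so that difference is a bound. EXPA18, also an expansin of root hairs, read higher, with 41.6 on OMG, 36.7 on DOG, 34.5 on wat and 34.7 on man (0.18).

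Among 5 xyloglucan enzyme genes compared, XTH18 was the only one with a kept difference, and the median was 0.17. XTH19, its neighbour on chromosome 4, read 34.6 on OMG, 51.4 on DOG, 25.3 on wat and 38.3 on man, so man lay between the analogs. XTH16 read 233.8 on OMG, 253.5 on DOG, 244.1 on wat and 192.6 on man, again with the sides overlapping. DOG was the highest of the 4 arrays for these 3 genes and for EXGT-A3 (828.0 on DOG, 814.1 on man). For XTH32 wat was highest, with 177.2 on OMG, 177.0 on DOG, 192.9 on wat and 156.9 on man. Whether the probe sets of the related genes XTH18 and XTH19 cross-hybridise was not tested.

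Genes of sugar starvation and low energy differed little between the sides. Of 9 compared, 1 (11.1%) read higher and 2 (22.2%) lower on both analog arrays, beside 20.1% and 16.6% of all, none was called and the median was -0.06 (0.07 against wat and -0.19 against man). AKINBETA1, a regulatory subunit of the SnRK1 kinase, read 541.1 on OMG, 523.4 on DOG, 569.3 on wat and 629.4 on man (-0.17), against 206.1 on glc and 320.9 on zer. IVD, an enzyme of leucine breakdown, read 466.2 on OMG, 457.1 on DOG, 484.5 on wat and 555.7 on man (-0.17), against 147.3 on glc and 229.0 on zer. For both genes the 4 arrays of the comparison lay within a narrow range, well above glc. The higher one, AT3G15450, read 3248.4 on OMG, 3100.6 on DOG, 2793.4 on wat and 3009.9 on man (0.13).

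Of 6 sugar transport and sensing genes, none read higher and 1 (16.7%) read lower on both analog arrays, beside 20.1% and 16.6% of all. The lower one was SWEET2, a sugar transporter of the vacuolar membrane. It read 373.1 on OMG, 343.9 on DOG, 395.1 on wat and 448.8 on man (-0.23), against 176.2 on glc and 236.2 on zer. Of 3 flavonoid genes, 1 read higher (33.3%, beside 20.1% of all). This was DFR, the dihydroflavonol reductase of anthocyanin synthesis, with 48.1 on OMG, 54.6 on DOG, 40.6 on wat and 36.5 on man (0.41). On glc DFR read 37.5, within the range of the controls, and on zer 106.8. UGT78D1 (-0.09) and UGT78D2 (-0.07) had overlapping sides, and the median of the flavonoid list was -0.07. Of 6 nuclear photosynthesis genes, 2 read higher (33.3%, beside 20.1% of all) and none lower, with a median of 0.10. RCA, Rubisco activase, read 3292.3 on OMG, 3054.7 on DOG, 2776.9 on wat and 2906.1 on man (0.16), and LHCB4.2, a light-harvesting protein of photosystem II, read 1982.1, 1825.6, 1785.2 and 1688.7 in the same order (0.13).

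In several stress lists the 2 controls differed more from each other than the sides did. The 4 genes of abscisic acid and osmotic stress had a median of -0.10, made up of 0.05 against wat and -0.25 against man, and no member had a kept difference. HIS1-3, a linker histone gene induced by drought, read 89.2 on OMG, 65.6 on DOG, 78.1 on wat and 126.5 on man. PDF1.2 encodes a plant defensin and answers to jasmonate with ethylene. It read 39.7 on OMG, 36.0 on DOG, 27.2 on wat and 178.9 on man. CML41, a calmodulin-like gene, read 104.5 on OMG, 145.1 on DOG, 60.6 on wat and 143.9 on man. In each of these 3 genes man was at or near the top, wat did not lie with it, and the sides overlapped. Over whole lists, the median of man minus wat was 0.32 for abscisic acid and osmotic stress and 0.49 for calcium and touch. For defensins it was -0.10, so that list did not share the high reading on man. PDF1.2b read higher on man than on wat, while LCR68, LCR69, PDF1.4 and PDF2.1 read lower.

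Among 3 genes of nitrogen and amino acid metabolism, MGL was the only one with a kept difference (33.3% lower, beside 16.6% of all). It was also the only one called, beside 0.423% of all called lower. GAT1_2.1, a glutamine amidotransferase gene, read 586.0 on OMG, 532.8 on DOG, 508.6 on wat and 791.3 on man, against 50.3 on glc and 187.5 on zer, so man and wat lay on opposite sides of the analogs. Of 8 glutathione transferases, none read higher and 4 (50%, beside 16.6% of all) read lower on both analog arrays, 1 of them called (GSTU25, beside 0.423% of all called lower), with a median of -0.11. GSTU22 read 86.4 on OMG, 95.1 on DOG, 132.1 on wat and 104.7 on man (-0.38). GSTU20 was on mixed sides, with 395.0 on OMG, 312.5 on DOG, 323.9 on wat and 198.9 on man.

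Of 23 UDP-glycosyltransferases, enzymes that attach sugars to small molecules, 2 (8.70%) read higher and 4 (17.39%) lower, beside 20.1% and 16.6% of all, with a median of -0.07. UGT73B5 alone was called lower (beside 0.423% of all), with 24.4 on OMG, 36.8 on DOG, 39.7 on wat and 63.2 on man (at least 1.54-fold). It lay 1.22-fold below wat and 1.95-fold below man, and it was not called without OMG or with an offset added before the log. UGT73B5 reached the array median only on man, so it did not pass the filter without man and was not compared there. UGT76C2, which glucosylates cytokinins, read 60.2 on OMG, 57.6 on DOG, 41.4 on wat and 41.6 on man (0.50), with the arrays within each side nearly equal. Of 7 mitochondrially encoded genes, none read higher and 4 (57.1%, beside 16.6% of all) read lower, with a median of -0.09. The largest of these was orfX, whose probe set type can match several transcripts, at 63.4 on OMG, 61.7 on DOG, 76.3 on wat and 74.9 on man (-0.27). Of 4 WRKY transcription factors 1 (25.0%) read higher (WRKY47, 0.23), and of 10 cytochromes P450 1 (10%) read higher and 2 (20%) lower, beside the same 20.1% and 16.6%. Iron deficiency (3 genes compared) and calcium and touch (3 genes) had no kept difference, and in auxin (3 genes) and defensins (6 genes) 1 gene each read lower (33.3% and 16.7%).

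**Figure D5:**
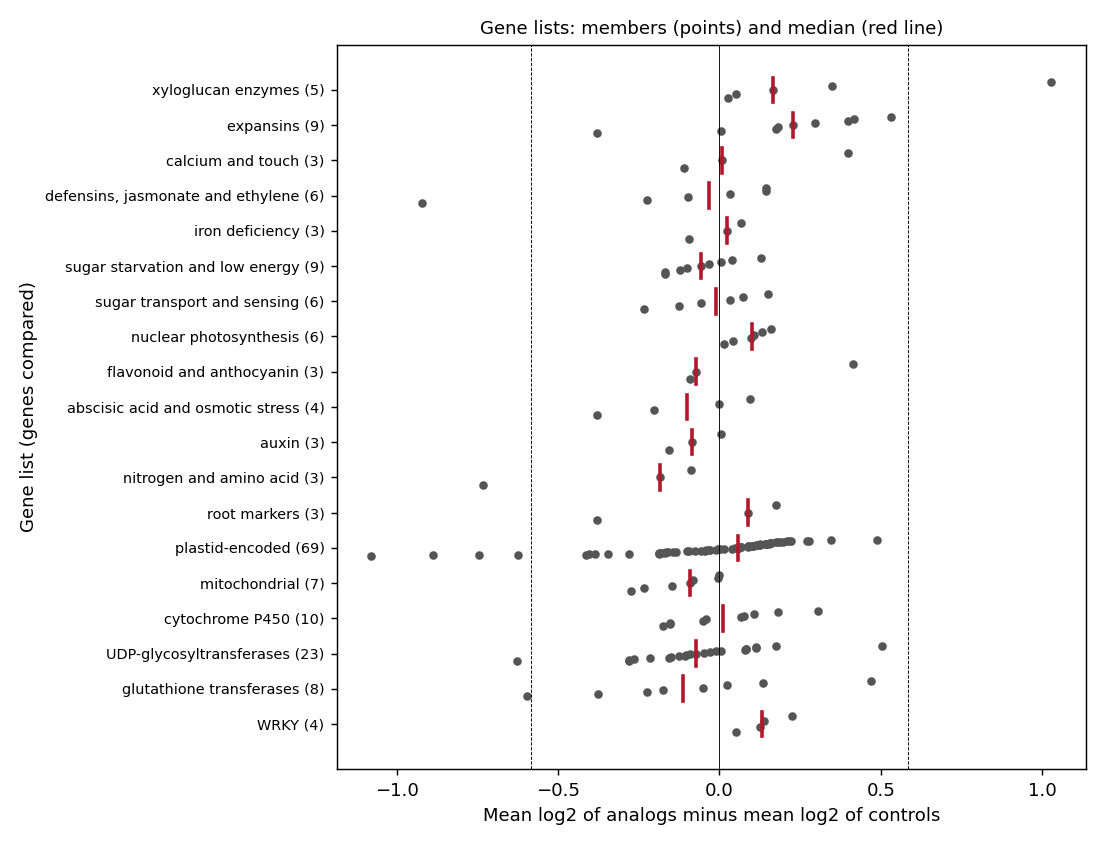
Each point is 1 gene, placed by the mean log2 signal of the analogs minus that of the controls, in gene lists with at least 3 genes compared (number in brackets), and the red line is the median of the list. Dashed lines mark 1.5-fold in each direction, and apart from XTH18 to the right, the points past them are called genes to the left, such as rps14 and MGL, together with PDF1.2, rpoB and petD, whose sides overlapped.

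Genes close to the thresholds show how fine the distinctions are. Just inside 1.5-fold in the higher direction were AT1G09160 (1.502-fold) and AT3G14120 (1.512-fold), and just outside were NANA (1.493-fold), at 53.5 on OMG, 73.1 on DOG, 41.3 on wat and 42.5 on man, and AT1G28400 (1.469-fold), at 263.5, 263.1, 207.7 and 154.6 in the same order. In the lower direction AT1G62760 and AT3G23550 lay just inside, and MSRA5, a methionine sulfoxide reductase gene, lay just outside (1.499-fold), at 57.5 on OMG, 50.3 on DOG, 87.0 on wat and 74.7 on man. AT1G28400 had nearly equal signals on the analog arrays, above both controls. At the edge of the filter on signal, LUL2 was just inside, with 39.8 on OMG, 36.7 on DOG, 31.0 on wat and 40.3 on man, and AT3G62590 was just outside, with 30.0 on OMG, 37.8 on DOG, 42.1 on wat and 27.8 on man.

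The 4 arrays were alike in overall measures. Median signal ran from 40.2 to 42.2, and the ratio of the 3′ to the 5′ actin control probe sets ran from 3.46 on DOG to 4.66 on wat, with both analog arrays below both controls (OMG 4.03, man 4.55). In the other 3 such ratios the sides overlapped. A further actin ratio was 1.62 on OMG, 1.55 on DOG, 1.56 on wat and 1.72 on man, and the pair of GAPDH ratios ran from 1.21 to 1.35 and from 0.838 to 0.944. The part of these ratios, a sign of RNA or target integrity, in the differences was not tested. The root marker PYK10 read between 2637.8 and 3009.9, the green-tissue markers RCA and LHCB4.2 gave the signals above, the root-hair expansins EXPA7 and EXPA18 read 43.4 or less, and the pollen marker AT5G45880 read 10.1 or less, under the floor. The other marker genes fixed for this check had no probe set named for them alone. In whole seedlings, fewer cells of a type and less RNA per cell cannot be told apart.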

How the data were processed

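Signals of 22810 probe sets on 6 oligonucleotide arrays, hybridised with biotin-labelled target from total RNA, were used as deposited. Per the submitters' processing notes, the authors made the intensity values with MAS5, with the version not given in the sources used. Every deposited column had a mean of 100 after trimming 2% at each end, so shared shifts in total signal are not visible. The AFFX probe sets were left out. Signals were raised to the common floor of 28.6 and taken to log2, and sides were compared as described above, by fixed sizes of 1.5-fold and 2-fold and with no test. The number of arrays limits the precision.

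Probe sets were named through the platform annotation and a RefSeq gene table (assembly TAIR10.1). Of 22746 probe sets, 13513 had a single gene, 503 several and 8730 were unnamed here, and 13436 were found in the gene table. Of those compared, 53.1% had a single gene. Named genes were up to 15 called per direction by size, up to 8 by the gap between nearest analog and control arrays, up to 3 per gene list, and those next to each threshold; other plastid and list genes, AT1G11360 and genes quoted as neighbours were chosen after their values were seen. A list gene was represented by its brightest probe set. The comparison, members and lists were chosen with earlier results of these data known.

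In all, 11 other settings changed the floor, the log scale, the normalization, the filter or the arrays used, and 1 more was added after the results were seen. The counting rule was tested on simulated data, in which only probe sets with a mean signal of at least 100 were raised, with equal noise for all. That simulation does not show how the rule performs at the dim signals where most probe sets were called. Python 3.11.15, numpy 2.4.6, pandas 2.3.3 and matplotlib 3.10.9 were used.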

Additional observations from a re-analysis of the deposited data

How the results depend on the processing

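There was no replicate of any array, and most called probe sets were dim. Without a floor, 48 probe sets were called higher in place of 30. With log2 of signal plus 16 the counts were 11 higher and 21 lower. With signals at or above the median on all 4 arrays they were 12 and 19. A signal of at least 100 on all 4 arrays, a limit chosen after seeing the data, left 1234 higher and 966 lower at any size, and 1 and 3 at 1.5-fold, of 5824 compared. These limits compare fewer probe sets by construction. Leaving out 1 array in turn gave 4070 to 4872 higher and 3631 to 4297 lower at any size, and 57 to 157 higher and 94 to 132 lower at 1.5-fold. A per-array floor, quantile normalization, equal medians and no filter kept both 1.5-fold counts within 1.5 times. Of the named genes, none of the 37 called and none of the 24 kept under 1.5-fold changed direction under a setting that compared it. This was largely fixed in advance, since both of their analog arrays lay on the same side of both controls. Leaving out an array, adding an offset or changing the filter could not reverse such differences. Of the 34 whose sides overlapped, 21 changed direction, such as CML41 (0.40, but -0.22 without wat) and GAT1_2.1 (-0.18, but 0.14 without man). PDF1.2 and rpoB did not pass the filter without man. Of 210 recomputed list medians, 196 stayed within 0.1 on the log2 scale. No paired analysis was possible because each group had 1 array and replicate numbers are only names.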
